A study of Mus musculus with 20 samples.

Results

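The mouse genes named Zfp with a number below 400 were followed in kidneys after ischemia/reperfusion injury. They were taken from the array annotation by name alone, without Zfp36, whose product belongs to a different class of zinc finger proteins, which left 129 gene names with 272 probes among 27827 gene names with 41174 probes. Of these 129 names, 121 were still current gene symbols in RefSeq and 7 were traced through their accessions to another symbol, among them Zfp295 (now Zbtb21), Zfp238 (Zbtb18), Zfp161 (Zbtb14), Zfp259 (Zpr1) and Zfp191 (Zfp24), while Zfp125 was not matched.

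RNA of whole kidney from male C57BL/6 mice aged 8 to 12 weeks was hybridised to 20 one-colour arrays, 4 in each of 5 groups. Control mice had no surgery and no treatment. IRI mice had both renal pedicles clamped for 45 min and were killed after 6 h of reperfusion. IRI+Hemin mice received hemin, an iron porphyrin given to induce heme oxygenase 1, by intraperitoneal injection at 25 mg/kg 24 h before the same surgery, and Hemin mice were treated with hemin without surgery. IPC+IRI mice were preconditioned by a 15 min clamp 7 days before the same injury. No group was operated on without clamping, so surgery and ischemia cannot be told apart, and whole tissue does not separate less RNA per cell from fewer cells of a type. The labels do not say that the 4 samples of a group came from separate animals, and p-values then measure the spread between these arrays only.

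Most of these genes encode proteins with arrays of C2H2 zinc fingers, small folds held by a zinc ion that each read a few bases of DNA. Many carry a KRAB domain, which recruits the corepressor Trim28 (KAP1) and with it heterochromatin enzymes such as Setdb1, and many such genes lie in tandem clusters that arose by duplication. Neighbouring fingers of one protein are joined by a short conserved linker, so their coding sequences resemble each other. Among stretches of 14 letters with the last letter of each codon left free, the commonest in the member probes was CANACNGGNGANAA (N for any base). It spells the last residue of a finger and the first of the linker, and was found, as the probe is written, in 15 of 272 member probes (5.51%), in 12 genes, and in 28 of 40902 other probes (0.0685%). The letters were chosen from the member probes, so these shares are a description. Shown are 5 of these probes, picked because they hold the stretch and report members described below. The stretch is in capitals, and positions are those of mm9.

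Zfp52 (chr17:21698735-21698794, plus strand): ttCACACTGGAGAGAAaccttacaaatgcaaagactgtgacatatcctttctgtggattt
Zfp345 (chr2:150298233-150298290, minus strand): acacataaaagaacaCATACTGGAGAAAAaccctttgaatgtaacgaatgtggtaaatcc
Zfp74 (chr7:30719733-30719792, minus strand): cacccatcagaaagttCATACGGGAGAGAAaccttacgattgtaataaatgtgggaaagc
Zfp26, 1 of 2 such probes (chr9:20241742-20241801, minus strand): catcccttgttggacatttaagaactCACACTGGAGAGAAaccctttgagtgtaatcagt
Zfp26, the other (chr9:20242266-20242325, minus strand): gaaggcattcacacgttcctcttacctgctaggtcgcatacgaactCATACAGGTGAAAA

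The 5 probes share the 14 letters except at the free positions, and their flanks differ. Whether a probe of this kind also bound RNA of another finger gene was not tested.

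Levels are given as log2 expression, the log2 of the processed signal after division by the 75th percentile of the array, so that 0 is a bright probe and each unit is a 2-fold step. Of the 129, 93 were well above background on all 20 arrays, and 6 were so on none (Zfp42, Zfp109, Zfp128, Zfp300, Zfp352 and Zfp365). No member spot was saturated. Scaling signals (75th percentiles) ranged from 146.7 to 357.9, and 57.4% to 67.4% of gene names were well above background per array. Every group had a slide to itself, and effects of the slide cannot be told apart from those of the group. Control and IRI arrays were scanned on the same day, whereas every other comparison crossed scan days. Markers of proximal tubule, loop and distal tubule, and collecting duct were well above background in all groups. The summed level of 8 leukocyte genes was 0.78 to 1.17 in Control and 2.38 to 3.33 in IRI, and that of 4 tubular injury genes 0.76 to 1.29 and 5.85 to 6.10. In IRI+Hemin these sums were 1.99 to 3.55 and 4.41 to 6.30, and in IPC+IRI 2.94 to 4.42 and 4.12 to 5.88. Rn18s, the 18S ribosomal RNA gene, had a level of 5.6 ± 1.45 in Control (SD, n = 4) and 4.93 ± 1.25 in IRI. It was at 7.65 ± 0.28 after preconditioned injury, 7.51 ± 0.19 in IRI+Hemin and 7.49 ± 0.090 with hemin alone. The part of these values in the results below was not tested.

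Over the 93 genes well above background on all arrays, the median level per array was -1.15 ± 0.10 (SD, n = 4) in Control and -0.89 ± 0.045 in Hemin. It was -1.70 ± 0.20 in IRI, -1.61 ± 0.24 in IRI+Hemin and -1.73 ± 0.23 in IPC+IRI. Each of these 12 arrays lay below each Control and Hemin array. Over all genes measured in the same way, the group means of the median lay between -0.10 and -0.073. That median lies close to 0, the level each array was scaled to, so it is no contrast for the dimmer Zfp genes. Over all gene names, dim ones included, the median was -3.46 to -3.15 on clamped arrays and -3.09 to -2.85 on the others. For Zfp numbers of 400 and above it was at most -1.662 on clamped arrays and at least -1.659 on the others. The separation was thus not particular to these genes. Among the 93 genes, the highest of the 5 group means belonged to Hemin in 40 and the lowest to IRI in 38.

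**Figure D1:**
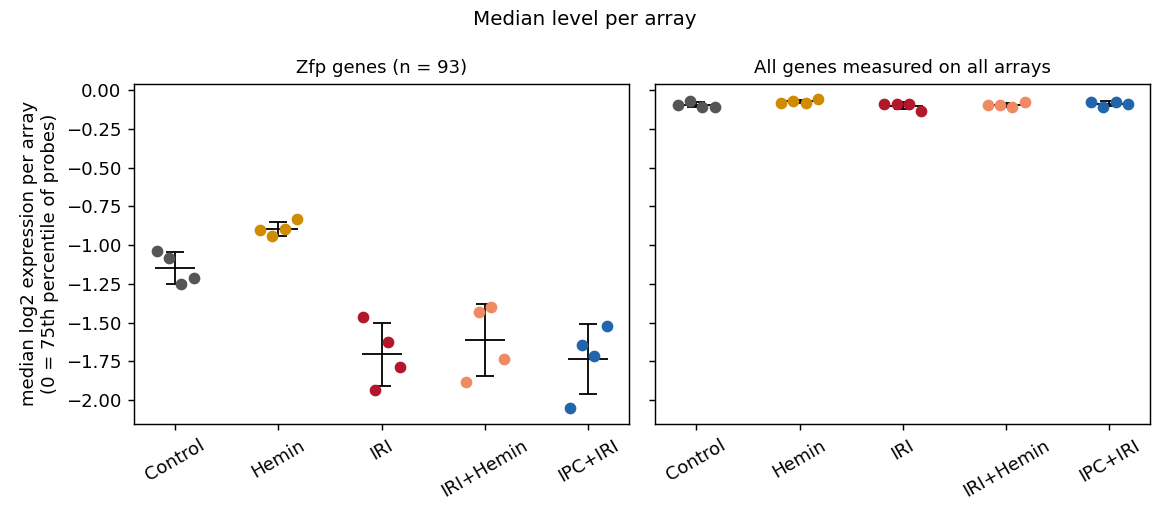
Median log2 expression on each array (points, 4 per group) for the 93 Zfp genes well above background on all arrays (left) and for all genes well above background on all arrays (right), with group mean and SD as bars. The 12 arrays of the 3 clamped groups lie below the 8 arrays without surgery on the left.

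To ask how injury alone altered these genes, IRI was compared with Control. Zfp genes fell more often than they rose: of 117 tested, 55 were lower and 17 higher at an adjusted p below 0.05 in limma, against 33.9% lower and 17.1% higher among all 17719 genes tested. The median log2 fold change was -0.44 for the Zfp genes and -0.17 for all genes. A gene entered the test if at least 3 of 4 arrays of either group were well above background, so a gene could enter through its higher group alone. Of the 103 Zfp genes measured in both groups, 44 fell (42.7%) and 16 rose, where 29.6% of all genes measured in both groups fell. With a further cutoff of 2-fold, 22 fell and 3 rose (14.3% and 5.97% of all genes).

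Dim genes fell more often than bright ones across the whole array, so the Zfp genes were set beside genes of like signal, in 4 classes of equal size by the mean level of all genes tested, class 1 being the dimmest. In class 1, 24 of 40 Zfp genes fell, and 55.1% of all genes there did so. In class 2, 23 of 40 fell (57.5%) and 1 rose, against 39.7% and 15.6% of all genes. In class 3, 8 of 33 fell and 8 rose (24.2% each), against 26.5% and 22.8%. Only 4 Zfp genes lay in class 4, the brightest, and all 4 rose, where 21.3% of all genes rose and 14.4% fell. In class 2 the median change was -0.50 for the Zfp genes and -0.27 for all genes. In class 4 it was 0.48 for the 4 Zfp genes and 0.0034 for all genes. Differences between the Zfp genes and genes of like signal were not tested.

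**Figure D2:**
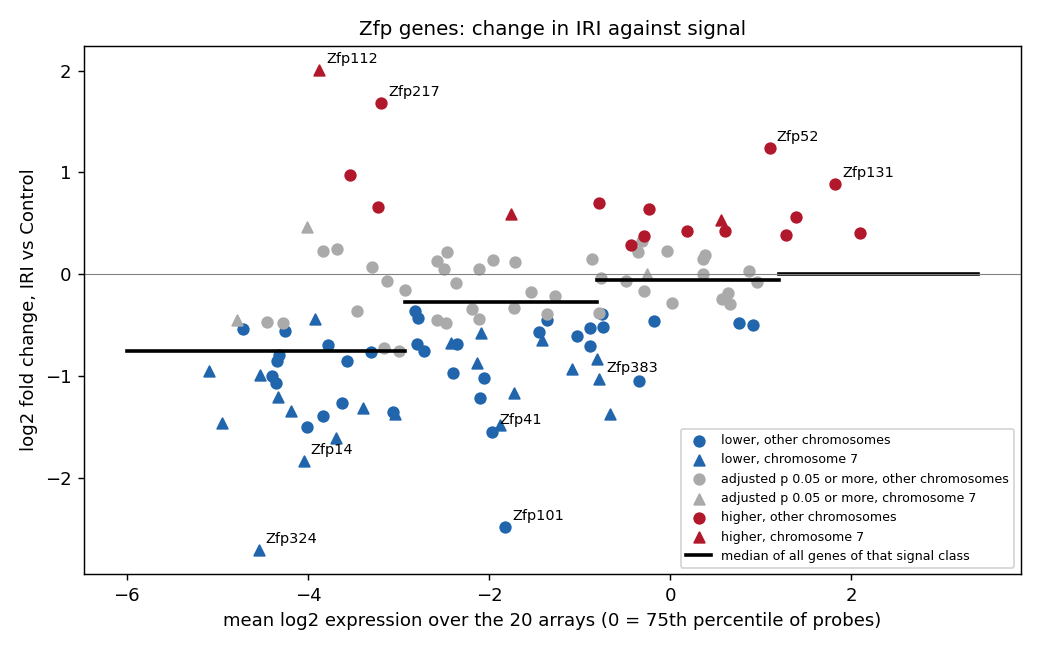
Log2 fold change, IRI vs Control, against mean log2 expression over the 20 arrays for the 117 Zfp genes tested. Points are coloured by call, triangles are genes of chromosome 7, and black bars give the median of all genes in each signal class; in class 2 the median is -0.50 for the Zfp genes and -0.27 for all genes.

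These counts depended on the background correction. With normexp correction and an offset of 50 in place of the processed signal, 9 Zfp genes rose and 6 fell, the median turned to 0.02, and only 7.87% of all genes fell. The processed signal is already background-subtracted. The cause of the difference was not tested.

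The largest fall among genes measured in both groups was that of Zfp101, on chromosome 17. Its level on the 4 Control arrays was -0.30, -0.26, -0.63 and -0.29, and on the 4 IRI arrays -2.70, -2.74, -2.79 and -3.20. The groups stood far apart, with a log2 fold change of -2.49 ± 0.14 (SE, n = 4 per group; limma adjusted p = 9.88e-10), or 5.61-fold lower in IRI. It read -2.97, -2.65, -2.39 and -2.50 in IRI+Hemin and -2.27, -2.53, -2.78 and -2.47 in IPC+IRI. On the Hemin arrays it was -0.69, -0.78, -0.71 and -0.87, all below the Control arrays. All 12 arrays of the clamped groups were thus low. The call was kept under each alternative, normexp included.

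Zfp41 on chromosome 15 measured -1.02, -1.12, -1.58 and -1.22 in Control and -2.50, -3.08, -2.80 and -2.75 in IRI, without overlap. It fell by 1.55 ± 0.17 on the log2 scale (limma adjusted p = 1.2e-06). Zfp30, a KRAB protein gene on chromosome 7, read -1.25, -0.98, -1.59 and -1.57 in Control. Its IRI arrays gave -2.23, -3.30, -2.76 and -3.05, so it fell by 1.48 ± 0.23 (limma adjusted p = 5.17e-05). Both its probes fell, by 1.59 and 1.14. Zfp93, another gene of chromosome 7, read -0.18, 0.15, -0.40 and -0.22 in Control and -1.33, -1.56, -1.53 and -1.74 in IRI, and fell by 1.38 ± 0.15 (limma adjusted p = 1.44e-06). With normexp correction Zfp93 and Zfp101 still fell past the threshold, whereas Zfp41 and Zfp30 did not (-0.49, limma adjusted p = 0.077, and -0.44, limma adjusted p = 0.155).

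Some members were measured in one group only. Zfp324, Zfp286 and Zfp78 were well above background on every Control array and on no IRI array. Their IRI levels were bounded near the dimmest probes well above background, and the mean bound differed slightly between genes. It was -5.19 for Zfp324, -5.10 for Zfp286 and -5.19 for Zfp78. Against these bounds, Zfp324 was at least 3.07-fold lower in IRI (measured mean -3.57 in Control, limma adjusted p = 2.17e-08). Zfp286 was at least 2.42-fold lower (limma adjusted p = 1.23e-05) and Zfp78 at least 1.78-fold (limma adjusted p = 0.000102). The reverse held for Zfp112, which was at least 3.1-fold higher in IRI than in Control, where no array measured it (limma adjusted p = 9.36e-05). These genes entered the test through their higher group, and the p-values belong to the fitted values, which include signals not well above background, and not to the bounds.

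Of the members that rose, Zfp52 and Zfp131 were among the brightest. Zfp52, on chromosome 17, measured 0.58, 0.35, 0.29 and 0.40 in Control and 1.40, 1.79, 1.68 and 1.73 in IRI. It rose by 1.24 ± 0.17 (limma adjusted p = 9.6e-06). Both its probes rose, the linker-bearing one shown above by 1.12 and the other by 1.86. Zfp131, a BTB zinc finger gene, rose by 0.88 ± 0.13 (limma adjusted p = 2.27e-05), from 0.93, 1.43, 1.16 and 0.77 in Control to 1.76, 2.10, 1.96 and 2.01 in IRI. Zfp217, a corepressor-associated factor amplified in some tumours, was 1.68 ± 0.27 higher (limma adjusted p = 5.82e-05) and was picked after its values were seen. It read -4.68, -4.01, -4.31 and -4.17 in Control, with 3 arrays well above background, and -2.72, -1.75, -3.25 and -2.72 in IRI.

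The rises of Zfp295 and Zfp64 depended on how probes were combined. Zfp295 rose by 0.98 ± 0.19 (limma adjusted p = 0.00031) from the mean of both probes, but by -0.03 (limma adjusted p = 0.932) from the mean of their log2 values. Zfp64 rose by 0.64 ± 0.12 (limma adjusted p = 0.000261), while its 3 probes gave 0.74, 0.48 and -0.89, each past the threshold.

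The falls were unevenly placed in the genome. By the mm9 positions of the probes, 29 Zfp genes lay on chromosome 7, more than on any other chromosome, and 27 of them were tested. Of these, 21 fell (77.8%) and 3 rose, with a median log2 fold change of -0.95. On the other chromosomes 34 of 90 Zfp genes fell (37.8%) and 14 rose, with a median of -0.34. Other genes of chromosome 7 did not share this: 35.4% of 1346 fell, close to the 33.6% of genes elsewhere. Since the chromosome was singled out after its values were seen, no test was applied.

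The chromosome 7 members were dimmer than the rest, with a median level of -3.03 against -1.89. Within the dimmer part of all genes tested, split at the median level, 19 of 23 chromosome 7 members fell (82.6%), compared with 28 of 57 members elsewhere (49.1%), 50.2% of other chromosome 7 genes and 47.4% of all genes. Of the 20 measured in both groups, 15 fell. Leaving out any Control or IRI array left 20 to 22 of the 27 tested lower. With normexp correction 3 fell and 2 rose, with a median of -0.10 against 0.04 for the other members, and without normalization between arrays 13 fell.

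In order along the chromosome, the members formed runs separated by gaps of over 2 Mb. The largest, 11 genes from Zfp60 to Zfp146 between 28534215 and 30954184, held 10 that fell and none that rose, with a median of -1.03. Leaving out any Control or IRI array left 9 or 10 lower and a median of -0.97 to -1.27, and without the first IRI array Zfp146 rose (limma adjusted p = 0.0415). The value at the median was that of Zfp383 (-1.03 ± 0.35; limma adjusted p = 0.0208), which was -0.50 ± 0.19 without the second Control array (limma adjusted p = 0.0385) and did not pass without the second IRI array (limma adjusted p = 0.0535). Among those measured on all arrays of both groups, the falls ranged from -0.64 ± 0.14 for Zfp84 to -1.48 ± 0.23 for Zfp30. Zfp14 and Zfp260 were well above background on 1 of 4 IRI arrays, so their sizes are less certain. Zfp74, with a probe shown above, fell by 1.32 ± 0.16 (limma adjusted p = 4.83e-06). Zfp146 alone lay above 0, at 0.46 ± 0.21 (limma adjusted p = 0.0792). In the run of 10 genes from Zfp180 to Zfp94, between 24889934 and 25087277, 6 of 9 tested fell and Zfp112 rose. Zfp112 thus rose between neighbours that fell or did not pass. Zfp235, next to it, fell by 0.87 and Zfp180, on its other side, gave 0.01 (limma adjusted p = 0.976). Zfp143, a single gene far from these runs, rose by 0.60 ± 0.16 (limma adjusted p = 0.00512).

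**Figure D3:**
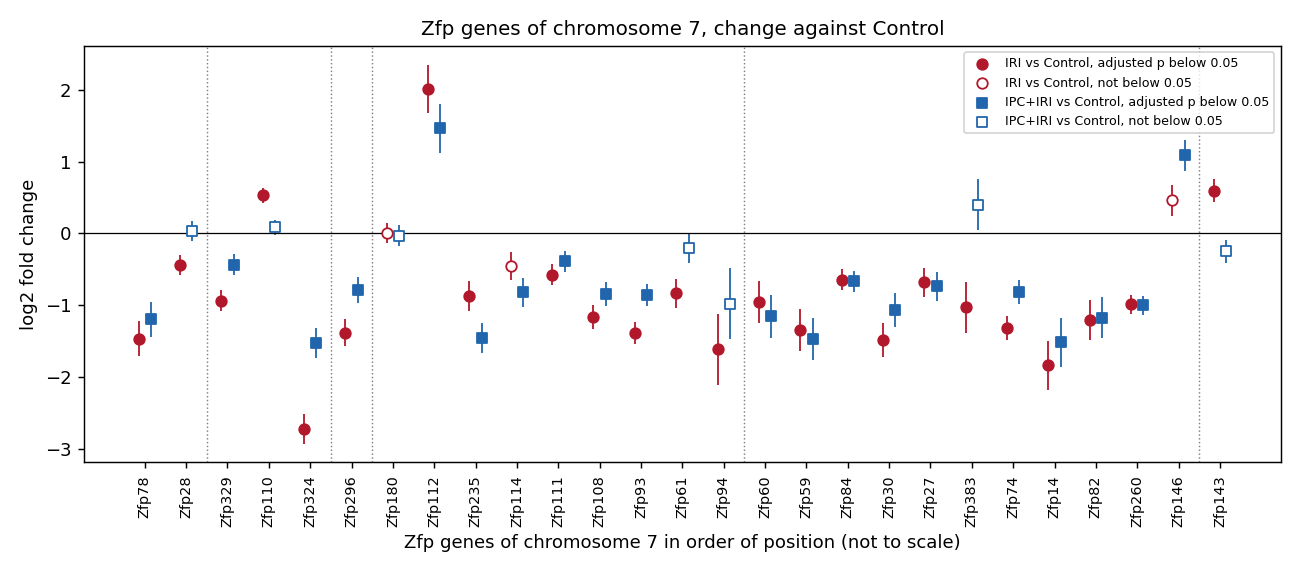
Log2 fold change with SE for the 27 Zfp genes of chromosome 7 tested, in order of position and not to scale, with dotted lines between runs. Circles are IRI vs Control, squares IPC+IRI vs Control, filled where the limma adjusted p was below 0.05; Zfp78 and Zfp324 in IRI and Zfp112 in Control were not well above background, and their points are fitted values, not bounds. In the run from Zfp60 to Zfp146, 10 of 11 circles are filled and lie below 0.

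Some of the chromosome 7 members also shared letters in their promoters, which the choice of members did not use. RefSeq promoters (GRCm38.p6, 250 bases before the start and 50 after) were found for 107 members, 139 promoters in all. Among stretches of 12 letters with letter 7 left free, the one found in most chromosome 7 members was ACTACANTTCCC, which belongs to the element bound by the human factors ZNF143 and THAP11 at many promoters. Searched on both strands, it was present in 15 of 31 promoters of chromosome 7 members (48.4%) and 8 of 108 of other members (7.41%). It was found in 21 of 243 promoters of other genes named Zfp with a number (8.64%), in 37 of 2759 of other chromosome 7 genes (1.34%) and in 0.947% of all 32851 promoters. The letters were chosen after reading these promoters, so the shares are a description. The 23 member promoters held 27 copies, of which 24 began within 150 bases before the start. Promoters are shown for 5 chromosome 7 members with the stretch, in capitals (GGGAANTGTAGT where it lies on the other strand), followed by Zfp30 and Zfp101, which fell and have none in this window.

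Zfp93 (chr7:24270168-24270467, plus strand): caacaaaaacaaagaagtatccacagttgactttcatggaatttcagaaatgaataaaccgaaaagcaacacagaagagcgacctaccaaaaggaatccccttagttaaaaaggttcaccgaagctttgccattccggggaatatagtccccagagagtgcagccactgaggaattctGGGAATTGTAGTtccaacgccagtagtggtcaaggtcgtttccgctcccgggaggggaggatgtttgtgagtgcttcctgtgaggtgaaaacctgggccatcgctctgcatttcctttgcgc
Zfp108 (chr7:24254544-24254843, plus strand): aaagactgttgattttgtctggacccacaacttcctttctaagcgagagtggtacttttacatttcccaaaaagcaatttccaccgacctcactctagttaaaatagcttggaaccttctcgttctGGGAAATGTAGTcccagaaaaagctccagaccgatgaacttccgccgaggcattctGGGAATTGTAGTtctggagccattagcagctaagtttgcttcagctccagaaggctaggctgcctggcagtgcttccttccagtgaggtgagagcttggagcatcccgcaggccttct
Zfp112 (chr7:24112070-24112369, plus strand): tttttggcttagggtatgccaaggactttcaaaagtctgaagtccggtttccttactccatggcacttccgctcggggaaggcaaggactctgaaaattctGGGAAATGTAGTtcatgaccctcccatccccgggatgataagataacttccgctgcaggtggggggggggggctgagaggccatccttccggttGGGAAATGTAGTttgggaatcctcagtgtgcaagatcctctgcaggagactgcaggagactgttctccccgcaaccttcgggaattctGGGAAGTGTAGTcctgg
Zfp383 (chr7:29908267-29908566, plus strand): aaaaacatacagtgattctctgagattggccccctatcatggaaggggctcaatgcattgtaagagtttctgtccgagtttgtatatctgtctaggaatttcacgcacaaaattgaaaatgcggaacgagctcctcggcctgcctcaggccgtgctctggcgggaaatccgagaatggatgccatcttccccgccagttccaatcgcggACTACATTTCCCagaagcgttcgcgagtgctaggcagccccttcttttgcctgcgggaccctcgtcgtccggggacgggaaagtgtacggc
Zfp14 (chr7:30051347-30051646, minus strand): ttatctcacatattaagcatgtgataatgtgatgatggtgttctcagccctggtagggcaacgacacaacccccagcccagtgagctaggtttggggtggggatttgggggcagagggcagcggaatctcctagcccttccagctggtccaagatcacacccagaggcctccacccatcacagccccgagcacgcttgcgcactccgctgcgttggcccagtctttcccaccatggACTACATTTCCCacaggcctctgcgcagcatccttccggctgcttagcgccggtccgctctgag
Zfp30 (chr7:29783718-29784017, plus strand): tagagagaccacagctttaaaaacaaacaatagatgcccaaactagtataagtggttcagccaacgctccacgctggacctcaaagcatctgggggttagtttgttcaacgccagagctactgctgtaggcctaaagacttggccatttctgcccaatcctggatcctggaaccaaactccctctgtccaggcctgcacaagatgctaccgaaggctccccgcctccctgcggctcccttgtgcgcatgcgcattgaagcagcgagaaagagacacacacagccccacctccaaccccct
Zfp101 (chr17:33394588-33394887, minus strand): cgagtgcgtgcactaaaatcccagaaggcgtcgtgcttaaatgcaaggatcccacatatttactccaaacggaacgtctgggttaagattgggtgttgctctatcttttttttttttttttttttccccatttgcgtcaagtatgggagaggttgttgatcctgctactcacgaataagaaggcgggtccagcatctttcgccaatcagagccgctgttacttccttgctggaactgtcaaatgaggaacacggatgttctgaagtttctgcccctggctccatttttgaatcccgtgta

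Zfp112 carried 3 copies and Zfp108 2, and Zfp93, Zfp383 and Zfp14 carried 1 each. Of the 20 members with the stretch that were tested in IRI vs Control, 14 fell and 2 rose (Zfp1 and Zfp112), with a median of -0.67. Of the 76 tested whose promoters lacked it, 31 fell and 15 rose, with a median of -0.35. Among all genes tested 33.9% fell and 17.1% rose. Most genes with the stretch, 15 of 23, lie on chromosome 7, which was singled out for its falls, and the stretch was picked from their promoters, so nothing is read from these counts.

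Other motifs were counted on both strands in the same promoters. An ETS site, CCGGAAG, occurred in 33 of 139 member promoters (23.7%) and in 8.86% of all promoters. The GC box GGGCGG was in 41.7% of member promoters against 35.7% of all, and CCAAT in 41.0% against 37.4%. The AP-1 site TGANTCA was in 2.16% against 7.81%. Among members lower in IRI, the GC box was in 13 of 51 promoters (25.5%), and among members higher in IRI in 14 of 20 (70.0%). A match of letters does not show that a factor binds there.

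The preconditioned injured kidney was next set against Control. Of 117 Zfp genes tested, 50 were lower and 22 higher, against 32.8% lower and 23.2% higher of all genes, with medians of -0.23 and -0.09. Of the 114 measured in both groups, 49 fell (43.0%) and 21 rose (18.4%), against 31.6% and 23.0% of all genes measured in both. Past 2-fold, 19 fell and 7 rose (14.1% and 7.96% of all genes). In signal class 2, 27 of 41 fell (65.9%) and 1 rose, against 39.4% and 19.4% of all genes there. In class 1, 16 of 35 fell (45.7%) and 6 rose, against 45.6% and 13.9%. In class 3, 7 of 37 fell (18.9%) and 11 rose (29.7%), against 28.3% and 26.3%. In class 4 all 4 rose, where 33.3% of all genes rose and 17.7% fell. On chromosome 7, 18 of 27 members fell and 2 rose (median -0.81), against 32 of 90 elsewhere (median -0.08) and 38.4% of other chromosome 7 genes. In the dimmer part, 17 of 22 members there fell, against 26 of 54 members elsewhere and 49% of other chromosome 7 genes. With normexp correction 7 of the 27 fell and 0 rose, and without normalization between arrays 3 fell and 2 rose. The split of calls over all Zfp genes turned without normalization between arrays, with 26 higher and 7 lower and a median of 0.20. Of all genes 33.9% were then higher and 11.2% lower, and their median moved to 0.35.

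Zfp101 again fell, by 2.14 ± 0.14 (limma adjusted p = 7.57e-09), as did Zfp345 and Zfp324. Zfp345 read -1.66, -2.50, -1.44 and -1.56 in Control and -4.21, -3.10, -3.76 and -3.21 in IPC+IRI, a fall of 1.77 ± 0.23 (limma adjusted p = 8.39e-06). Its 2 probes fell by 2.47 and 1.45. Zfp324 was measured on all arrays of both groups and fell by 1.52 ± 0.21 (limma adjusted p = 1.18e-05). Zfp395, known as a factor induced by hypoxia, was -1.36, -2.17, -1.50 and -1.02 in Control and -3.34, -4.18, -3.85 and -3.66 in IPC+IRI. It fell by 2.24 ± 0.53 (limma adjusted p = 0.00159). In IRI+Hemin it was split, at -3.33, -6.40, -3.26 and -5.96, and only arrays 1 and 3 were well above background.

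Among the rises, Zfp52 was 1.16 ± 0.17 higher (limma adjusted p = 1.85e-05), Zfp131 1.12 ± 0.13 (limma adjusted p = 2.01e-06) and Zfp64 1.03 ± 0.12 (limma adjusted p = 2.7e-06). The probes of Zfp64 again had opposite calls, and the mean of their log2 values gave 0.20 (limma adjusted p = 0.156). Zfp185, which encodes an actin-associated LIM domain protein, read -0.84, -0.38, -0.69 and -0.52 in Control and -0.04, 0.68, 0.52 and 0.69 in IPC+IRI. It rose by 1.07 ± 0.14 (limma adjusted p = 8.55e-06). In IRI vs Control it gave 0.23 ± 0.14 (limma adjusted p = 0.193). IRI vs Control and IPC+IRI vs Control use the same Control arrays. Zfp292, which encodes a large transcription factor, fell by 0.77 ± 0.20 in IRI (limma adjusted p = 0.00419) and rose by 0.89 ± 0.20 in IPC+IRI (limma adjusted p = 0.00129). Neither sign was stable, since with normexp correction it gave 0.086 in IRI vs Control (limma adjusted p = 0.869), and from the mean of log2 values over probes -0.14 in IPC+IRI vs Control (limma adjusted p = 0.592).

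Both protective treatments were then compared with injury alone. In IPC+IRI vs IRI, 31 of 116 Zfp genes were higher and 12 lower, against 26.3% and 17.8% of all genes, with medians of 0.14 and 0.09. In IRI+Hemin vs IRI, 39 of 117 were higher and 16 lower, against 26.3% and 18.1%, with medians of 0.17 and 0.08. Past 2-fold, 4 rose and 1 fell in each, against 7.18% and 4.4% of all genes in the former and 7.45% and 5.04% in the latter. Whether the Zfp genes differed from all genes here was not tested. Both comparisons use the same IRI arrays and cross scan days. Both splits changed with the scaling, as did those of all genes. With normexp correction they were 7 higher and 13 lower after preconditioning, against 13.2% and 13.8% of all genes, and 8 higher and 23 lower with hemin, against 14.7% and 18.3%. Without normalization they were 34 to 0, against 33.5% and 3.41%, and 46 to 1, against 36.7% and 3.48%.

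Zfp292 and Zfp383 rose most. Zfp292 read -4.27, -4.54, -4.21 and -4.28 in IRI. It was -2.75, -2.56, -2.54 and -2.83 in IPC+IRI, a rise of 1.65 ± 0.20 (limma adjusted p = 1.24e-05), and -3.03, -2.26, -2.36 and -2.74 in IRI+Hemin, a rise of 1.73 ± 0.20 (limma adjusted p = 7.74e-06). The groups did not overlap in either comparison. Its value rested on 1 of its 3 probes, since the others were well above background on 1 array at most. With normexp correction the rises were 0.03 (limma adjusted p = 0.909) and 0.05 (limma adjusted p = 0.85).

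Zfp383, a KRAB zinc finger gene of the chromosome 7 run, read -1.81, -2.30, -2.02 and -2.01 in IRI. It rose by 1.43 ± 0.35 in IPC+IRI (limma adjusted p = 0.00336) and by 1.92 ± 0.35 in IRI+Hemin (limma adjusted p = 0.000339), where the arrays read -0.05, -0.69, 0.28 and 0.02. Its 4 Control arrays were -1.44, 0.59, -1.60 and -1.57, so that the second stood apart. Zfp148, a GC-rich promoter factor also known as ZBP-89, rose by 0.89 ± 0.13 (limma adjusted p = 3.74e-05) and 0.71 ± 0.13 (limma adjusted p = 0.000252). Its 4 probes had opposite calls in both comparisons, and the mean of their log2 values gave 0.15 in IRI+Hemin vs IRI (limma adjusted p = 0.34). Zfp184 rose by 0.87 ± 0.18 (limma adjusted p = 0.000777) and 0.53 ± 0.18 (limma adjusted p = 0.0216). Zfp397 rose by 0.59 ± 0.14 (limma adjusted p = 0.00237) and 0.96 ± 0.14 (limma adjusted p = 4.7e-05), and Zfp120 by 0.79 ± 0.16 in IRI+Hemin (limma adjusted p = 0.000787). In IPC+IRI vs IRI the sign turned with normexp correction for Zfp184 (-0.22, limma adjusted p = 0.409) and Zfp397 (-0.083, limma adjusted p = 0.724), and for Zfp397 also with its brightest probe (-0.11, limma adjusted p = 0.615).

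Among the falls against IRI, Zfp369 was lower in both treated groups, by 0.72 ± 0.12 in IPC+IRI (limma adjusted p = 0.000122) and by 0.90 ± 0.12 in IRI+Hemin (limma adjusted p = 1.69e-05). It read -1.88, -1.94, -1.89 and -1.86 in IRI, all above the 8 treated arrays, which lay between -3.10 and -2.51. Its probes had opposite calls in both comparisons, and from the mean of log2 values over them it gave 0.094 in IPC+IRI vs IRI (limma adjusted p = 0.755) and -0.21 in IRI+Hemin vs IRI (limma adjusted p = 0.461). Zfp384, which binds promoters of matrix metalloproteinases, fell by 0.84 ± 0.11 (limma adjusted p = 2.55e-05) and 0.70 ± 0.11 (limma adjusted p = 0.000115). Zfp143, the mouse ZNF143, fell by 0.84 ± 0.16 (limma adjusted p = 0.000503) and 0.62 ± 0.16 (limma adjusted p = 0.00468). It was -1.72, -1.97, -1.71 and -1.62 in Control and -1.02, -1.27, -1.14 and -1.20 in IRI. From the mean of log2 values over its 2 probes, its rise in IRI was 0.55 (limma adjusted p = 0.0603). In IRI+Hemin alone of the 2 treated groups, Zfp1 (-0.82 ± 0.17; limma adjusted p = 0.00109) and Zfp238, a BTB repressor also called RP58 (-0.84 ± 0.16; limma adjusted p = 0.000387), passed the threshold; the difference between treated groups was not tested. Zfp39 was lower in both treated groups, by 0.89 ± 0.30 in IPC+IRI (limma adjusted p = 0.0235) and by 1.00 ± 0.30 in IRI+Hemin (limma adjusted p = 0.012), where its limma adjusted p was 0.0507 without the first IRI array. Zfp395 was lower in both too, by 1.49 ± 0.53 in IPC+IRI (limma adjusted p = 0.0286), where leaving out IRI 1, IRI 4, IPC+IRI 2 or IPC+IRI 3 gave limma adjusted p = 0.051 to 0.0726. In IRI+Hemin it fell by 2.47 ± 0.53 (limma adjusted p = 0.00116), the largest fall among the members tested there, measured above background on 2 of its 4 arrays.

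**Figure D4:**
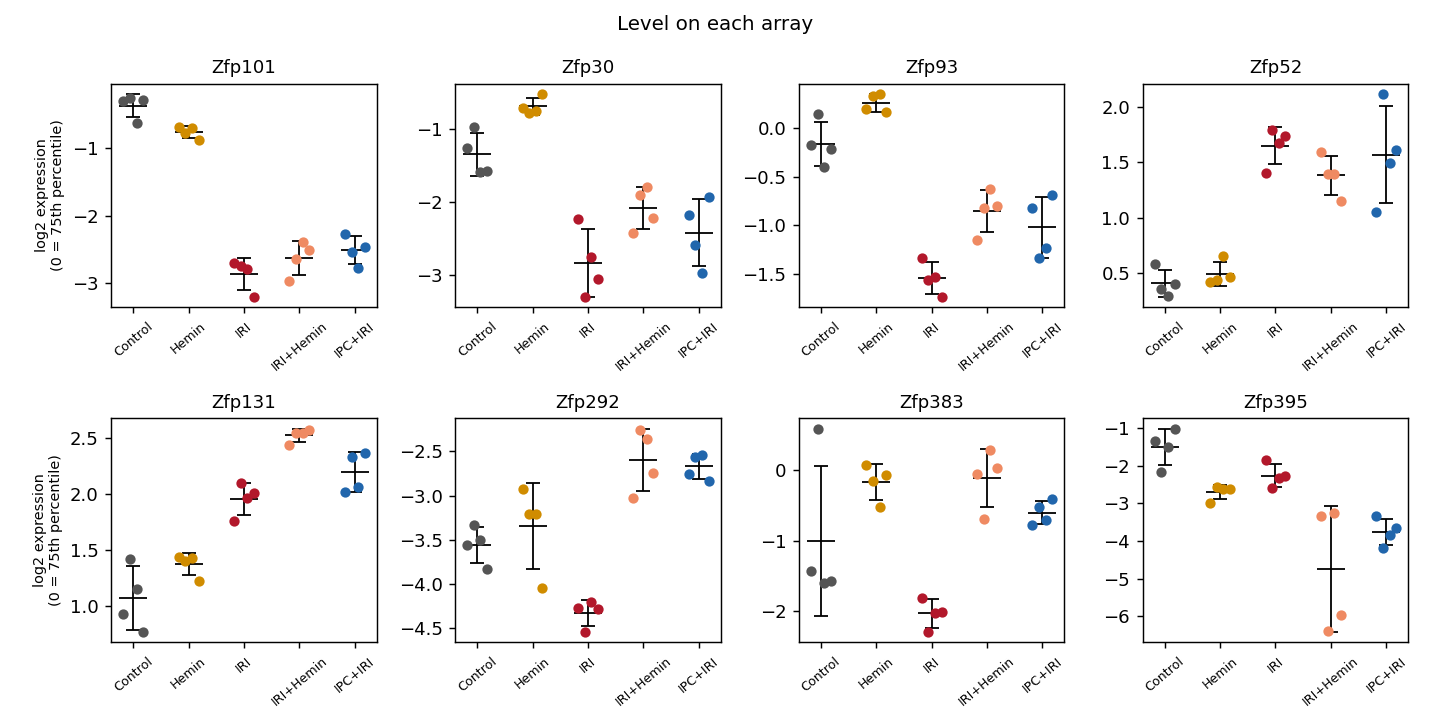
Log2 expression of 8 Zfp genes on each array (points, 4 per group), with group mean and SD as bars; the vertical axis differs between panels. Zfp101, Zfp30 and Zfp93 are lower in all 3 clamped groups than in Control, Zfp52 and Zfp131 higher, Zfp292 and Zfp383 are lowest in IRI, and Zfp395 is spread over 2 levels in IRI+Hemin.

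Hemin without surgery was compared with Control, across scan days. Of 118 Zfp genes, 30 were higher and 15 lower, against 18.5% and 17.6% of all genes, with medians of 0.18 and 0.06. In signal class 3, 14 of 36 rose (38.9%) and 2 fell, against 21.1% and 15.9% of all genes there. In class 2, 7 of 44 rose (15.9%) and 10 fell (22.7%), against 13.9% and 20.6%, and in class 1, 6 of 33 rose (18.2%) and 3 fell, against 9.75% and 24.1%. Past 2-fold, 3 rose and 2 fell (2.19% and 5.99% of all genes). This split changed with the scaling and the background correction: scaling to probes well above background on all arrays gave 16 higher and 19 lower (12.5% and 23.2% of all genes), normexp correction 9 and 9 (10.6% and 9.25%), and no normalization 65 and 1 (47.5% and 2.64%, with a median of all genes of 0.62). Leaving out the third Control array left 18 higher, and leaving out the first or the fourth left 9 or 8 lower.

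**Figure D5:**
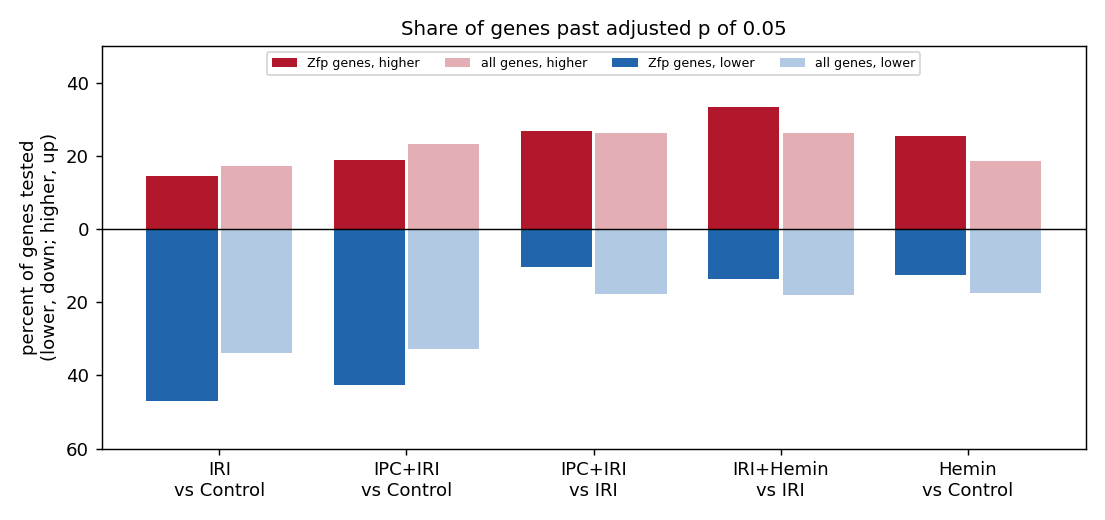
Percent of genes tested that were higher (red, upward) or lower (blue, downward) at an adjusted p below 0.05 in each comparison, for the Zfp genes (dark bars) and all genes (pale bars). The Zfp genes have the deeper blue bar in both comparisons with Control after injury, 47.0% against 33.9% and 42.7% against 32.8%.

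Zfp286 rose most, from -3.68, -3.88, -3.90 and -3.84 to -2.65, -2.74, -2.42 and -2.48, by 1.25 ± 0.21 (limma adjusted p = 0.000306). Zfp61 rose by 0.73 ± 0.21 (limma adjusted p = 0.0109), Zfp324 by 0.71 ± 0.21 (limma adjusted p = 0.0134) and Zfp64 by 0.70 ± 0.12 (limma adjusted p = 0.000446), although its probes had opposite calls and the mean of their log2 values gave 0.011 (limma adjusted p = 0.952). Zfp345 fell by 1.48 ± 0.23 (limma adjusted p = 0.000246), to -3.18, -3.42, -3.14 and -3.35, overlapping the IRI arrays, which read -3.07, -3.30, -2.85 and -3.38. Zfp59 fell by 1.14 ± 0.29 (limma adjusted p = 0.00549), Zfp369 by 0.82 ± 0.12 (limma adjusted p = 0.000119) and Zfp317 by 0.69 ± 0.22 (limma adjusted p = 0.0219). Leaving out Control 3 ended the call of Zfp324 (limma adjusted p = 0.0578), which with normexp correction gave -0.041 (limma adjusted p = 0.908), and leaving out Control 1, 3 or 4 that of Zfp317 (limma adjusted p = 0.0552 to 0.058).

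Whether hemin acted differently with and without injury was tested as an interaction, the change from IRI to IRI+Hemin less the change from Control to Hemin. Of 118 Zfp genes, 4 had a positive and 2 a negative value past the threshold, against 5.84% and 1.96% of all 19064 genes. Past 2-fold, 3 were positive and 0 negative, against 4.28% and 0.845%. Zfp292 gave 1.52 ± 0.29 (limma adjusted p = 0.00356), Zfp345 1.14 ± 0.33 (limma adjusted p = 0.0423), Zfp397 1.05 ± 0.20 (limma adjusted p = 0.00348) and Zfp341 0.54 ± 0.15 (limma adjusted p = 0.0317). Zfp1 gave -0.99 ± 0.25 (limma adjusted p = 0.0187) and Zfp64 -0.61 ± 0.17 (limma adjusted p = 0.0353). The probes of Zfp64 had opposite calls in the interaction, and from the mean of their log2 values it gave 0.049 (limma adjusted p = 0.907). The calls of Zfp345, Zfp64 and Zfp341 ended when any of 13, 11 and 7 of the 16 arrays, respectively, was left out (limma adjusted p = 0.0503 to 0.0824). None of the 6 passed with normexp correction or without normalization.

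Members with a described function gave mixed results in IRI vs Control. Those that rose were Zfp281, a GC-box factor of pluripotent cells (0.42 ± 0.09; limma adjusted p = 0.00119), Zfp263, a SCAN and KRAB factor (0.38 ± 0.10; limma adjusted p = 0.00512), Zfp110, known as NRIF and a partner of the neurotrophin receptor p75 (0.53 ± 0.10; limma adjusted p = 0.000418), and Zfp259, or Zpr1, which binds the EGF receptor and elongation factor 1A (0.43 ± 0.11; limma adjusted p = 0.00392). Zfp335, part of a methyltransferase complex, rose by 0.28 ± 0.10 (limma adjusted p = 0.0199), but its brighter probe rose by 0.49 and the other fell by 1.62, and the mean of their log2 values gave -0.56 (limma adjusted p = 0.0021). Without IRI 2 or IRI 3 its gene value no longer passed (limma adjusted p = 0.0528 to 0.064). Zfp318, a factor of IgD expression, fell by 0.61 ± 0.10 (limma adjusted p = 0.000111) and Zfp260 by 0.99 ± 0.13 (limma adjusted p = 9.4e-06). With normexp correction Zfp260 gave 0.098 (limma adjusted p = 0.856), and 1 of 4 IRI arrays measured it well above background.

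Several passed against Control after preconditioned injury and not after injury alone. The comparison of IPC+IRI with IRI is the test of that difference. Zfp326, which links RNA polymerase II to splicing, was 0.97 ± 0.14 higher in IPC+IRI than in Control (limma adjusted p = 1.86e-05) and 0.65 ± 0.14 higher than in IRI (limma adjusted p = 0.00119). Zfp367 was 0.61 ± 0.14 higher than in Control (limma adjusted p = 0.00134) and 0.67 ± 0.14 higher than in IRI (limma adjusted p = 0.000935), but -0.13 against Control in the deposited log2 table (limma adjusted p = 0.796). Zfp161, a BTB repressor, fell by 0.97 ± 0.16 from Control (limma adjusted p = 5.9e-05) and by 0.63 ± 0.16 from IRI (limma adjusted p = 0.0036). Below Control in IPC+IRI were also Zfp346, which binds double-stranded RNA (-0.65 ± 0.15; limma adjusted p = 0.00137), and Zfp62 (-0.82 ± 0.32; limma adjusted p = 0.0367). Zfp91, a ubiquitin ligase of the non-canonical NF-kappaB pathway, was 0.25 ± 0.10 higher (limma adjusted p = 0.0369), with opposite calls among its probes. These 3 did not pass in IPC+IRI vs IRI (limma adjusted p = 0.0947, 0.282 and 0.403). Zfp69 passed in Hemin vs Control alone (0.87 ± 0.33; limma adjusted p = 0.0446). The calls of Zfp62, Zfp91 and Zfp69 ended when any of 5, 6 and 6 of their 8 arrays was left out (limma adjusted p = 0.0533 to 0.131). Zfp90, Zfp106 and Zfp207 passed in none of the 5 comparisons. Zfp42, a marker of pluripotent cells, Zfp57, which keeps imprinted methylation, and Zfp365 were too dim to be tested.

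The 3 brightest members were Zfp330, Zfp131 and Zfp212, and each rose in both injury comparisons with Control. Zfp330 rose by 0.41 ± 0.10 in IRI (limma adjusted p = 0.00212) and by 0.45 ± 0.10 in IPC+IRI (limma adjusted p = 0.000848). Zfp212 rose by 0.56 ± 0.10 (limma adjusted p = 0.000163) and 0.76 ± 0.10 (limma adjusted p = 7.17e-06). In Hemin vs Control, Zfp330 (0.47 ± 0.10; limma adjusted p = 0.00174) and Zfp212 (0.57 ± 0.10; limma adjusted p = 0.000446) rose and Zfp131 gave 0.31 ± 0.13 (limma adjusted p = 0.0707).

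The corepressor genes that KRAB proteins work through were set beside them. Of 19 tested in IRI vs Control, 1 rose and 3 fell, with a median of -0.17, which was also the median of all genes, of which 17.1% rose and 33.9% fell. Trim28 gave 0.04 ± 0.14 (limma adjusted p = 0.83) and Setdb1 -0.05 ± 0.16 (limma adjusted p = 0.803). The 3 that fell were Cbx5 (-0.62 ± 0.12; limma adjusted p = 0.000461) and Cbx1 (-0.48 ± 0.20; limma adjusted p = 0.0475), both heterochromatin protein 1 genes, and Mphosph8 (-0.42 ± 0.13; limma adjusted p = 0.0136), a chromodomain protein of the HUSH silencing complex. Dnmt1, the maintenance DNA methyltransferase, rose by 0.47 ± 0.11 (limma adjusted p = 0.00215). In IPC+IRI vs Control 2 rose and 8 fell, with a median of -0.31, against 23.2% and 32.8% of all genes and a median of -0.09. Chd4, a remodelling ATPase of the NuRD complex, fell by 1.72 ± 0.26 (limma adjusted p = 3.63e-05), Hdac2, a histone deacetylase, by 1.71 ± 0.21 (limma adjusted p = 4.71e-06) and Setdb1 by 1.12 ± 0.16 (limma adjusted p = 2.15e-05). All 3 also fell with hemin and no surgery, Chd4 by 1.61 ± 0.26 (limma adjusted p = 0.00031), Hdac2 by 1.47 ± 0.21 (limma adjusted p = 0.00014) and Setdb1 by 0.50 ± 0.16 (limma adjusted p = 0.0236). Cbx1 and Dnmt3b rose there, by 0.72 ± 0.20 (limma adjusted p = 0.00875) and 0.53 ± 0.14 (limma adjusted p = 0.00651), so that 2 rose and 5 fell, against 18.5% and 17.6% of all genes. In IRI+Hemin vs IRI 2 rose and 4 fell, against 26.3% and 18.1%. Hdac2 fell by 1.78 ± 0.21 (limma adjusted p = 9.08e-06), and Cbx1 rose by 1.24 ± 0.20 (limma adjusted p = 9.81e-05) and Dnmt3b by 0.62 ± 0.14 (limma adjusted p = 0.00148). In IPC+IRI vs IRI 2 rose and 6 fell, against 26.3% and 17.8%, with Cbx1 higher by 1.19 ± 0.20 (limma adjusted p = 0.000145). Trim28 gave -0.30 ± 0.14 in IPC+IRI vs Control (limma adjusted p = 0.0782). Apart from IRI vs Control, all these comparisons crossed scan days. Mean levels of Hdac2 were -1.96 (Control) and -2.23 (IRI) on their shared scan day. On the other days they were -4.01 (IRI+Hemin), -3.67 (IPC+IRI) and -3.43 (Hemin). Levels of Setdb1, Chd4, Cbx1 and Dnmt3b also divided by scan day, and those of Trim28, Cbx5, Dnmt1 and Mphosph8 did not. The part of scan day in these changes was not tested. Whether corepressor genes and Zfp genes differed was not tested.

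Genes with a higher Zfp number were counted in the same way. Of 136 names with a number of 400 or more, 120 were tested in IRI vs Control. Of these, 54 fell (45.0%) and 16 rose, against 33.9% and 17.1% of all genes, with a median of -0.37. In IPC+IRI vs IRI, 17.5% of those tested were lower and 29.2% higher, where 10.3% and 26.7% of the members and 17.8% and 26.3% of all genes were. Against Control, 49 of 123 fell in IPC+IRI (39.8%) and 19 rose, where 32.8% and 23.2% of all genes did. Of 51 Zbtb, Zscan and Zkscan names, 15 of 49 tested in IRI vs Control fell (30.6%) and 6 rose, with a median of -0.21. Among all genes 33.9% fell and 17.1% rose there. In IPC+IRI vs Control 22 of 49 fell (44.9%) and 12 rose, against 32.8% and 23.2% of all genes. In IPC+IRI vs IRI 7 were lower and 13 higher, against 17.8% and 26.3%. These values are given side by side, and the differences between name groups were not tested.

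Probes of one gene did not always move together. In IRI vs Control, 55 members had at least 2 probes tested, and in 5 of them (Zfp26, Zfp64, Zfp91, Zfp335 and Zfp369) some probe rose and another fell past the threshold of a fit over all 25952 probes tested. Zfp26, with 8 probes on chromosome 9, showed this most: its probes starting at 20242266, 20242465 and 20242773 rose by 1.24, 1.72 and 2.15, whereas that starting at 20241742 fell by 0.73 and its brightest, at 20237569, fell by 0.62. Both probes with the finger stretch shown above are among these, the one at 20242266 higher and the one at 20241742 lower. As the mean over probes it gave 0.05 ± 0.12 (limma adjusted p = 0.772). In Zfp148, 2 probes rose in IPC+IRI vs Control, by 0.61 and 1.02, and another fell by 1.55. In Zfp91, probes rose by 0.97 and fell by 0.61 in IRI vs Control. Over all 206 member probes tested in that comparison, 89 fell and 32 rose, with a median of -0.39, against 30.9% and 17.7% of all probes. Which transcripts the probes of these genes report was not tested.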

How the data were processed

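Kidney RNA was labelled with a single dye and read on Agilent arrays of the mouse genome. The authors deposited scanner files from Agilent Feature Extraction 9.5.3.1, whose intensity values (processed signals) are background-subtracted per the file headers. A series table deposited by the authors holds log2 values; at probes with a single spot 100% of them lay within 0.001 of the log2 processed signal, with 18.1% left blank, so they were not scaled between arrays. It was used as an alternative.

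Spots flagged as outliers and control spots were removed, and spots of a probe averaged. Signals were divided by the 75th percentile of the array, probes of a gene name averaged and log2 taken. A gene was tested if at least 3 of 4 arrays of either group were well above background and at most 1 value was missing. All 20 arrays were fitted with 5 group means in limma 3.58.1 (R 4.3.3; lmFit and eBayes, 15 residual degrees of freedom), with Benjamini-Hochberg adjustment over all genes tested and a threshold of 0.05. The study's methods used another test with fold cutoffs, and a 2-fold cutoff was tried here. A "fell by" value is a log2 fold change. The number of arrays limits the precision, and an exact permutation test of 4 against 4 arrays cannot go below p = 0.029.

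Named in the text were the members with the 4 largest rises and falls past the threshold per comparison among those measured on all its arrays without overlap, members with a described function, the 3 brightest and the corepressor genes. Members named for their place, promoters, probes or background in one group were picked after their values were seen. The members and lists were chosen with earlier results of these data known. Each step was tested on simulated data. Promoters were those of RefSeq, GRCm38.p6, and probe positions those of the array files, mm9; the builds were not mixed. Protein sequences were not used here. The alternatives were background correction, normalization, filter, probe summary, fold cutoff, replicate block, the series table, and leaving out each array.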

Additional observations from a re-analysis of the deposited data

Results flagged for a closer look

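In 21 of the 260 groups of 4 arrays examined for 52 named members, a single array stood apart from the other 3, where chance gives about 1 in 20. The second Control array was apart in 6 members. It was above the others for Zfp383 (0.589, nearest -1.44), Zfp326 (-0.356, nearest -0.993) and Zfp330 (2.00, nearest 1.61), and below them for Zfp384 (-0.505, nearest 0.0440), Zfp317 (-1.82, nearest -1.33) and Zfp260 (-4.23, nearest -3.73). Control 3 was low for Zfp101 (-0.63, nearest -0.304).

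Among the Hemin arrays, the first was low for Zfp395 (-2.98, nearest -2.63) and high for Zfp143 (-1.94, nearest -2.10). The second was low for Zfp1 (-1.34, nearest -0.806) and Zfp61 (-0.0915, nearest 0.0438). The fourth was low for Zfp131 (1.23, nearest 1.41) and Zfp120 (-0.741, nearest -0.334), and high for Zfp185 (0.24, nearest 0.0421).

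Among the injured groups, IPC+IRI 2 was low for Zfp64 (0.0193, nearest 0.213) and IPC+IRI 1 high for Zfp184 (-3.05, nearest -3.45), and IRI 2 was low for Zfp397 (-3.41, nearest -2.83). In IRI+Hemin, array 4 was low for Zfp62 (-3.50, nearest -1.51), and array 1 was high for Zfp110 (0.739, nearest 0.500) and Zfp207 (1.12, nearest 1.01). Array 2 was high for Zfp365 (-5.84, nearest -7.00), which no array measured above background.

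The interaction of hemin with injury passed the threshold in limma for Zfp292 (1.52, adjusted p = 0.00356), Zfp345 (1.14, adjusted p = 0.0423), Zfp397 (1.05, adjusted p = 0.00348), Zfp341 (0.54, adjusted p = 0.0317), Zfp1 (-0.992, adjusted p = 0.0187) and Zfp64 (-0.613, adjusted p = 0.0353). None of the 6 passed with normexp correction or without normalization. The calls of Zfp345, Zfp64 and Zfp341 ended when any of 13, 11 and 7 of the 16 arrays was left out, and Zfp64 turned to 0.049 (adjusted p = 0.907) with the mean of log2 values over its probes.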

How the results depend on the processing

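Of 2029 recomputed values of named members, 1751 kept direction and side of the threshold, 259 no longer passed and 19 turned sign. Causes were not tested. With normexp correction, members higher and lower were 9 and 6 in IRI vs Control (median 0.021), against 10.1% and 7.87% of all genes. They were 13 and 24 in IPC+IRI vs Control, against 14.8% and 16.7%, and 9 and 9 in Hemin vs Control (median -0.069), against 10.6% and 9.25%. With the same correction 7 were higher in IPC+IRI vs IRI (median -0.22) and 8 in IRI+Hemin vs IRI (median -0.32), and 0 passed in the interaction. Zfp260 (0.098) and Zfp292 (0.086) turned in IRI vs Control, Zfp184 (-0.22) and Zfp397 (-0.083) in IPC+IRI vs IRI, and Zfp324 (-0.041) in Hemin vs Control.

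Without normalization, the medians of all genes in the 5 comparisons, in the order of the report, were -0.05, 0.35, 0.41, 0.45 and 0.62. Then 10 were higher and 25 lower in IRI vs Control, 7 lower in IPC+IRI vs Control (median 0.20), 0 lower in IPC+IRI vs IRI (median 0.46), 1 lower in IRI+Hemin vs IRI (median 0.53), 65 higher and 1 lower in Hemin vs Control (median 0.75), and 0 passed in the interaction. Zfp318 (0.017) turned in IPC+IRI vs Control, Zfp335 (0.084) in IRI+Hemin vs IRI, and Zfp110 (0.21), Zfp161 (0.12) and Zfp260 (0.22) in Hemin vs Control.

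Quantile normalization gave a median of -0.27 in IRI vs Control. Scaling to probes always above background gave -0.34 in IPC+IRI vs Control, and 16 higher with a median of 0.067 in Hemin vs Control. The deposited log2 table gave 9 higher in IRI vs Control, 5 lower in IPC+IRI vs IRI, 9 lower in IRI+Hemin vs IRI, and 6 lower with a median of 0.28 in Hemin vs Control. There Zfp367 turned in IPC+IRI vs Control (-0.13). With a 2-fold cutoff, higher and lower counts were 3 and 22, 7 and 19, 4 and 1, 4 and 1, and 3 and 2, with 3 in the interaction. With no filter on dim genes the interaction had 3.

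With the mean of log2 values over probes, Zfp295 (-0.029) and Zfp335 (-0.56) turned in IRI vs Control, Zfp263 (-0.028) and Zfp292 (-0.14) in IPC+IRI vs Control, Zfp369 (0.094) in IPC+IRI vs IRI, Zfp259 (-0.095) in IRI+Hemin vs IRI and Zfp64 (0.049) in the interaction. With the brightest probe, Zfp397 turned in IPC+IRI vs IRI (-0.11).

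Leaving out each array in turn gave 16 to 19 higher and 51 to 58 lower in IRI vs Control, 20 to 22 and 45 to 49 in IPC+IRI vs Control, 25 to 32 and 9 to 13 in IPC+IRI vs IRI, 31 to 41 and 12 to 20 in IRI+Hemin vs IRI, 18 to 35 and 8 to 16 in Hemin vs Control, and 3 to 7 in the interaction, with 3 without IRI 2, IRI+Hemin 4 or Hemin 3. Zfp395 in IPC+IRI vs IRI no longer passed without IRI 1, IRI 4, IPC+IRI 2 or IPC+IRI 3. Replicate numbers were not used to pair the arrays in the main fit. In IRI vs Control same-numbered deviations correlated at 0.0496 to 0.149 and others at -0.149 to 0.0415, and all 4 were best with their own number. In every other comparison 0 were best with their own number, and same-numbered values went as low as -0.318 in IPC+IRI vs IRI. With the replicate block, counts were 17 and 55, 22 and 49, 29 and 11, 36 and 15, 27 and 13, and 4 in the interaction. The slide as a random block could not be fitted, since each group lay on its own slide. Levels near background limit what the dimmest members show.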
